A study of Mus musculus with 193 samples.

Results

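The cells described here are germ cells from the testes of wild-type mice at postnatal day 7 (P7), sorted as positive for Id4-eGFP, a green fluorescent reporter of the gene Id4. They are all 53 cells whose sample titles carry the wild-type P7 name, out of 193 cells in the series. The other cells come from P3 testes, 71 from wild-type mice and 69 from mice labelled Rhox10 Knockout, and every group carries the reporter. The labels name no strain, animal or litter, so each group counts as 1 sample and no test was run between or within groups. The 53 titles fall into 2 lettered sets that the labels do not explain, A with 12 cells and B with 41. Set A and set B are given apart for many of the values, because they are the only check on whether a pattern repeats. Values are RPM, the reads of a gene scaled to a fixed total of reads in its cell, and log2 values are log2(RPM + 1).

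Spermatogonia are the mitotic germ cells of the testis. A minority of them are stem cells, which depend on GDNF, a growth factor that acts through the receptor pair GFRA1 and RET. Others are progenitors, which can respond to retinoic acid, induce Stra8 and the receptor gene Kit, and leave the stem cell pool. Id4 encodes a helix-loop-helix protein, and bright Id4-eGFP fluorescence is widely used to enrich for stem cells. RNA measured here can differ from the reporter, whose level in each cell is not part of the data.

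Each P7 cell had between 1738640 and 4778783 reads in total (median 3299782), of which 226903 to 820131 were on genes. A cell had a median of 6530 genes above 1 RPM, with 5913 in set A and 6563 in set B. The value of 1 read was below 1 RPM in every cell, so values near 1 RPM rest on few reads. No pair of cells had identical values. Of 5003 genes well enough detected for correlation, 594 had set means at least 1 log2 unit apart, 139 higher in set A and 455 higher in set B. Correlations were therefore taken after each gene's set means were subtracted.

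The germ cell label held in every cell. Ddx4, which encodes a germ cell RNA helicase, ranged from 64.9 to 538 RPM with a median of 221. Dazl, which encodes a germ cell RNA-binding protein, ranged from 316 to 1146 RPM with a median of 618. The log2 means of both genes were within 0.03 of each other in the sets (Ddx4 7.75 in A and 7.72 in B, Dazl 9.25 and 9.27). Zbtb16, the gene of the transcription factor PLZF found in undifferentiated spermatogonia, was above 1 RPM in 52 of 53 cells and had a median log2 level of 5.52. Its only cell at 0 belonged to set A, had 3661968 reads, and held 170 RPM of Ddx4 and 27.3 RPM of Stra8.

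Genes that mark other testis cells were low or absent in most cells, with single cells higher. Of 13 Sertoli cell genes, none was above 1 RPM in most cells, the median cell summed to 0 RPM over the list, and the highest cell reached 9.47. Amh and Fshr were at 0 in all 53 cells, which allows up to 5.66% of cells with a read of them. This limits cells with a read, not cells that express the gene. The Leydig genes Cyp11a1 and Cyp17a1 were also at 0 throughout, while Star, the steroid carrier gene, was above 1 RPM in 15 cells. Summed stromal and myoid genes had a median of 1.67 RPM, endothelial genes 0.670 RPM and leukocyte genes 0. The highest cell reached 28.9 RPM for stromal and myoid genes, 87.5 RPM for endothelial genes, of which Tek reached 87.2, and 42.9 RPM for Leydig genes. Flt1 was above 1 RPM in 16 cells and Col1a1 in 14, and their part in the results was not tested. Genes of later germ cells were not uniformly low: Sycp1 and Syce1, which encode parts of the synaptonemal complex of meiosis, were above 1 RPM in 53 and 51 cells, whereas Pgk2 and Acr passed it in 1 cell each.

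The stem cell receptor genes were detected in most cells at widely different levels. Gfra1 ran from 0 to 139 RPM, with a median log2 level of 4.59, and was above 1 RPM in 49 cells, or 92.5% (exact 95% interval 81.8 to 97.9%, counting error only). Ret ran from 0 to 130 RPM (median 27.9) and was also above 1 RPM in 49 cells. Both sets covered most of the same range, with log2 means of 4.74 in A and 4.22 in B for Gfra1, and SDs between cells of 1.69 and 1.84. Id4 itself was low, with a median of 4.45 RPM, a maximum of 66.6 and 41 cells above 1 RPM (77.4%, 63.8 to 87.7%). Rhox10, the homeobox gene named in the label of the study's other genotype, was above 1 RPM in 26 cells and reached 24.5 RPM. In the P3 cells labelled knockout it was above 1 RPM in 34 of 69 and reached 31.9 RPM, against 45 of 71 and 17.3 RPM in wild-type P3 cells. The knockout-labelled sets differed, with 15 of 21 cells in A, 9 of 12 in B and 10 of 36 in C. The wild-type P3 sets had 10 of 16 in A and 35 of 55 in B. Over all cells, reads of the gene thus did not separate the labelled genotypes, although set C was lower. Which part of the gene the knockout removes is not stated in the labels.

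Kit had a long upper tail. Its median was 0.223 RPM and its highest cell 132 RPM, with 26 cells at 0 and 22 cells above 1 RPM (41.5%, 28.1 to 55.9%). In set A, 3 of 12 cells were above 1 RPM and the highest reached 15.5, while in set B 19 of 41 were. Stra8 was at 0 in 20 cells and reached 152 RPM, with 31 cells above 1 RPM and log2 means of 2.27 in set A and 2.65 in set B. Among transcription factors tied to stem cells, Nanos2 was above 1 RPM in 7 cells and Lhx1 in 20, and Neurog3, a progenitor gene, in 1.

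**Figure D1:**
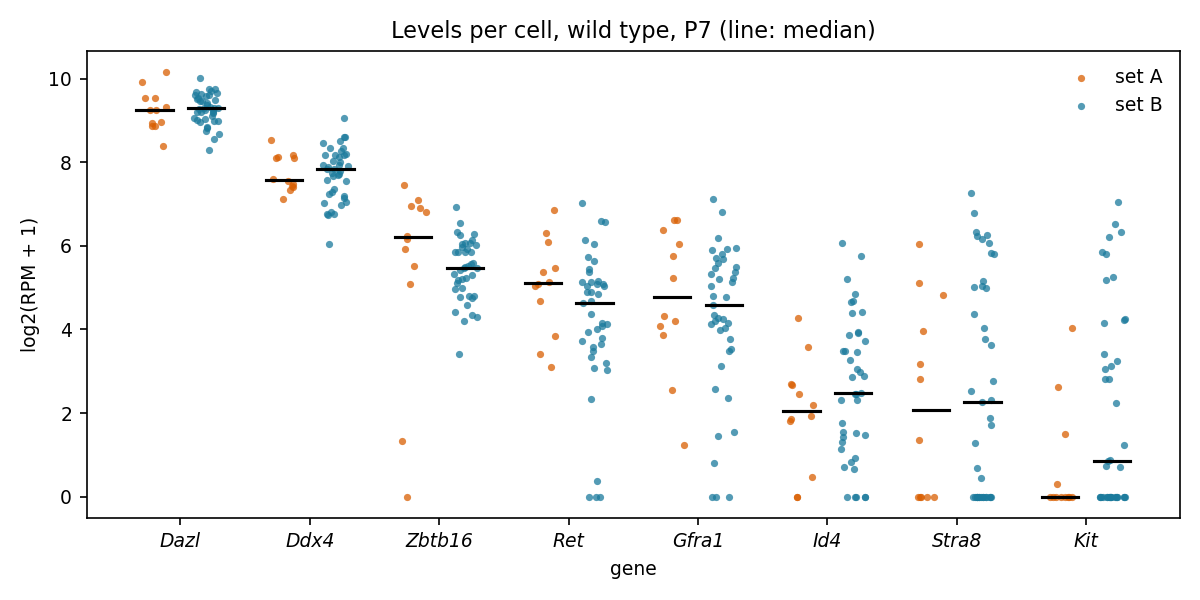
Levels of 8 genes in each of the 53 cells, as log2(RPM + 1), with set A in orange and set B in blue; the black line is the median of a set. Dazl and Ddx4 lie in narrow bands in every cell, while Stra8 and Kit run from 0 to log2 values of 7.26 and 7.06.

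Of 19557 genes, 998 were above 1 RPM in all 53 cells (5.10% of genes). The lists differed in how many members reached that mark. For oxidative phosphorylation it was 26 of 39 members, for heat shock and chaperones 12 of 20, for general germ cell genes 8 of 24, and for stem cell genes 0 of 20. In the list of progenitor genes it was 2 of 16, and among differentiating genes 2 of 18. The median member lay at 5.29 log2 in the germ cell list, 5.18 in the chaperone list, 4.49 in oxidative phosphorylation and 1.10 in the stem cell list, so the order of the counts was not that of the levels.

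Levels were compared between genes after division by exonic length. Rpph1, the RNA component of RNase P, stood first with 562 RPM per kb, followed by the ribosomal protein gene Rpl4 with 225 and the chaperone gene Hsp90ab1 with 198. Sdc4, which encodes the cell surface proteoglycan syndecan-4, was next with 182 RPM per kb, and Dazl was next with 168. Others among the 15 highest were the ribosomal protein gene Rpl8, the actin gene Actb, the proteasome genes Psma6 and Psmb2, the tubulin gene Tuba3a, the translation factor gene Eef1a1, Cox6a1 of the respiratory chain and the chaperonin gene Cct8. Of these, Rpl8 was highest with 154 RPM per kb and Cct8 lowest with 111. Without division by length Dazl led all genes with 640 RPM, and 7 of the 15 names were kept. Tuba3a has the near-identical copy Tuba3b, and many ribosomal protein genes have processed copies, so their levels are uncertain.

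Sdc4 was unlike the other leading genes in its spread. It ranged from 10.2 to 1116 RPM, with log2 means of 9.08 in set A and 8.13 in set B. Its SD within sets was 1.07 log2, where the 200 genes nearest in level had a median SD of 0.64. The SD was 0.51 in set A and 1.19 in set B, so the spread lay in set B. Dazl, in contrast, had an SD of 0.39 and Hsp90ab1 of 0.34.

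Spread depended strongly on level, which the ERCC spike-in RNAs show. These are synthetic RNAs that were added at lysis. Summed spike-ins ran from 3880 to 33637 RPM between cells, so their SD also holds differences in that share. At log2 levels of 2 to 3, the 5 spike-ins had a median SD of 1.55 and the 1925 genes there one of 1.69. Of these genes 69.1% lay above the spike-in median. At levels of 4 to 6, the 4 spike-ins had 0.99 and the 1431 genes 1.19, with 70.2% above. At levels of 8 to 12, the 7 spike-ins had a median SD of 0.68 and the 17 genes 0.46, below the spike-ins.

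Against genes of like level, the most variable highly expressed genes were Enc1 and Ccnd2. Enc1, an actin-binding BTB-kelch gene, had a log2 SD of 1.95 against 0.64 for its neighbours in level, with 0.70 in set A and 2.19 in set B, so its spread lay in set B. Ccnd2, the gene of cyclin D2, which drives G1, had an SD of 1.73 against 0.64, with 1.30 in set A and 1.86 in set B, and ran from 0 to 362 RPM around a median of 141. Egr1 (1.56 against 0.89) and Sall4 (0.96 against 0.64) also stood above their neighbours. Stra8 (2.52 against 1.67), Tcl1 (2.25 against 1.49), Kit (2.20 against 1.52) and Gfra1 (1.79 against 1.27) were wide for their level, while Id4 (1.61 against 1.72) and Rhox10 (1.65 against 1.59) were close to it. Among the least variable genes for their level were Rps3a at 0.34 against 0.97, Cox6b1 at 0.39 against 1.14 and Hint1 at 0.40 against 0.98. The genes in these sentences outside the marker and list rules were picked by the ratio of SDs after it had been seen.

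**Figure D2:**
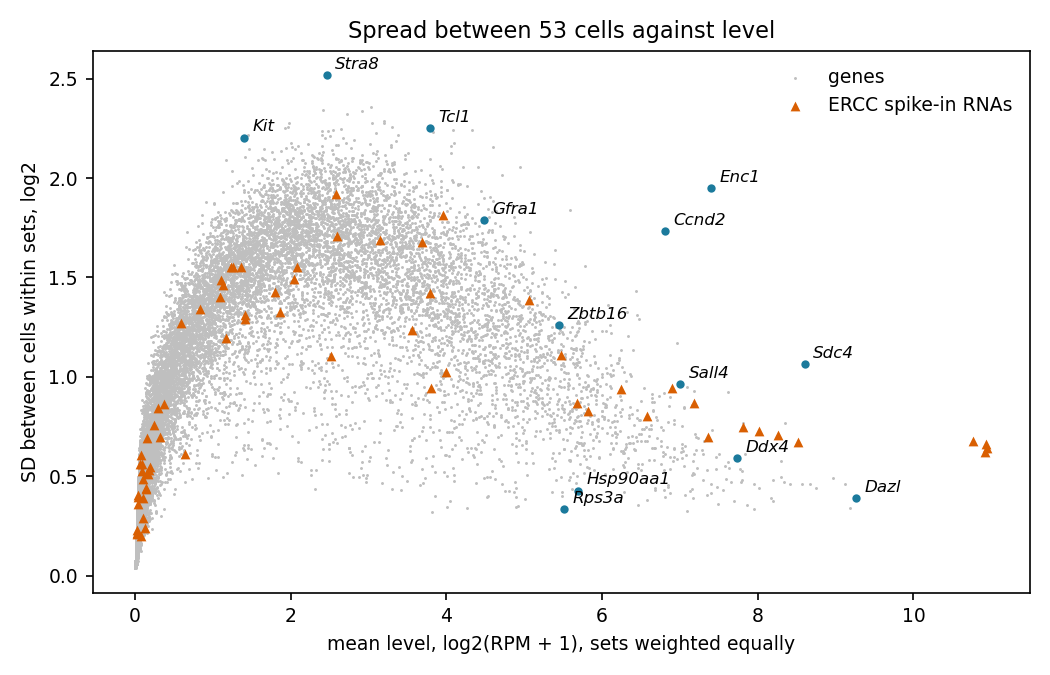
SD between the 53 cells after set means were subtracted, against mean log2(RPM + 1), for each gene (grey, 13 named genes in blue) and each ERCC spike-in RNA (orange triangles). Enc1, Ccnd2 and Sdc4 stand above the cloud at high levels, while Dazl lies below the spike-ins.

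On/off genes were defined as being at or above a high level in at least 20% of the cells of each set, at or below 1 RPM in at least 20% of each set, and between the levels in at most 20% of the 53 cells. With 16 RPM as the high level, 4 genes met this (0.0205% of 19557), of which 1 has no proper name. The named ones were Sox11, a SoxC transcription factor gene, Sertad4, and Mex3c, which encodes an RNA-binding ubiquitin ligase. Sox11 was at or above 16 RPM in 27 cells and at or below 1 RPM in 16. Its on cells held a median of 105 reads of it, while no off cell held more than 3. At these depths the limit of 1 RPM leaves few reads in any off cell by definition. Sertad4 was on in 26 cells and off in 17. Mex3c was on in 16 cells and off in 27, with 4 on and 7 off in set A and 12 on and 20 off in set B.

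With 8 RPM as the high level, 175 genes met the definition (0.895%), 167 of them named. Stra8 ranked first by spread, on in 21 cells and off in 22. Its on cells had a median of 34.6 RPM and its off cells at most 2 reads, again few by definition. Set A held 4 on and 5 off cells for Stra8, and set B held 17 and 17. Pmaip1, the gene of the proapoptotic protein NOXA, was on in 28 cells and off in 19. Cenpi, which encodes a kinetochore protein, was on and off in 22 cells each. The initiator caspase gene Casp2 was on in 32 and off in 14, and the sugar nucleotide gene Ugp2 was on in 29 and off in 16. The other genes in the first 20 were Zfp948, Zfp62, Sox11, Sertad4, Mex3c, Erap1, Enpp4, Lancl2, Rap1gds1, Fam160b1, Nid1, Sp4, Obfc2a, Lin28b and Tmem168. Of the fixed lists, the 175 genes held Lin28b, Stra8, Plk1, Dusp1, Pmaip1, Nsdhl and Asns. Kit was at or above 8 RPM in 14 cells, but in only 1 of the 12 cells of set A, so it was not among them.

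Among the 190 pairs of the 20 leading genes, the median r across 53 cells was 0.04, near the 0.03 of all measured pairs, and ran from -0.38 for Sertad4 with Nid1 to 0.45 for Fam160b1 with Nid1. Of the 84 spike-ins 0 met the definition at 8 RPM, but only 12 of them had a mean log2 level of 2 to 4, where 102 of 3327 genes did, so too few spike-ins lay there for a comparison. At P3 the same rule at 8 RPM gave 22 genes in wild-type cells (0.112%) and 26 in the cells labelled knockout (0.133%), with 5 and 10 shared with the 175. The groups differ in numbers of cells, and the cells labelled knockout fall into sets A, B and C, so the counts are not on equal terms. With the criteria over all cells only, the counts out of 19557 genes were 321 at P7, 41 in wild-type P3 cells and 160 in the cells labelled knockout. Pmaip1 was on in 58 of 71 wild-type P3 cells (81.7%) and 52.8% of P7 cells, and this difference was not tested.

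Pairs of genes were called when r was at least 0.6 over the 53 cells and at least 0.4 in each set. Of 12512503 pairs, 491 were called (0.00392%), and 28 were called in the negative direction by the mirrored rule (0.000224%). The highest values came from genes that overlap on the genome. Of the 50 highest pairs, 37 were overlapping genes, such as Apex1 with Tmem55b (r = 0.98), Ppib with Snx22 (0.97) and Myef2 with Slc24a5 (0.96). All 61 overlapping pairs that were called lay on opposite strands, out of 304 measured pairs that overlap in this way and 14 that overlap on the same strand. Of the 2689 pairs that overlap or lie within 50 kb, 64 were called (2.38%). The strand setting of the counting is not given in the sources used here, so reads of overlapping genes cannot be told apart. Another 13 called pairs had symbols alike in their first letters. Among them were Tuba3a with Tuba3b, pairs of ribosomal protein genes, and Mcm3 with Mcm6 (0.73), which are distinct genes.

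Of the other called pairs, 411 lay apart, 3 lay within 50 kb without overlap, and 3 had a gene with no position. The highest of those apart with names were Ankrd12 with Eef1d (0.75, and 0.65 in A and 0.77 in B), Arhgdia with Metap1 (0.74, and 0.91 and 0.60) and Snrpb with Sod1 (0.74). Ccnd2 with Itpripl1 followed at 0.73, with 0.74 in each set. Other pairs had one value near 1 in the small set and a lower one in the large set, such as Exosc7 with Mcm6, at 0.94 in A and 0.46 in B. Partners were counted without pairs alike in symbol, overlapping or within 50 kb, which leaves Mcm6 out for Mcm3. In that count Mcm3, part of the replicative helicase, had 7 called partners. They included Tipin of the replication fork (0.71), Prim2 of primase (0.66), Rpa2 (0.62) and the sliding clamp gene Pcna (0.61). Rrn3, the gene of a transcription factor for ribosomal RNA genes, also had 7. Npm1, Metap1, Mgea5, Sod1 and Tipin had 5 each. Dazl covaried with Npm1 (0.62, and 0.60 in A and 0.64 in B), the gene of the nucleolar protein nucleophosmin. Among the negative pairs, Eif3d with Pnrc2 had -0.65 (-0.75 in A and -0.61 in B).

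Genes of the stem cell list varied together. Of its 20 members, 8 were detected well enough, namely Id4, Gfra1, Ret, Etv5, Bcl6b, Egr2, Tcl1 and Cd9. The median r over their 28 pairs was 0.41, with 0.27 in set A and 0.41 in set B, where all measured pairs of genes had a median of 0.03. Over the 53 cells 28 of 28 pairs had r above 0 (lowest 0.19), and in set A 27 did, while 57.1% of all pairs did. The other members, among them Nanos2, Lhx1, Pou3f1 and Pax7, were too sparse. Ret and Gfra1 encode the GDNF receptor, and Etv5, Bcl6b and Egr2 encode transcription factors known as GDNF targets. The separate list of GDNF and FGF signalling did not vary as a block, although it shares 4 of these genes. Its 10 measured genes had a median r of 0.07 over the 53 cells and in each set, with 28 of 45 pairs above 0.

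Single pairs differed in strength. Among the highest, Etv5 and Cd9 had r = 0.61 (0.60 in A and 0.63 in B), Egr2 and Tcl1 0.60 (0.63 and 0.58), and Gfra1 and Etv5 0.57 (0.39 and 0.63). The receptor genes Gfra1 and Ret had 0.30, with -0.08 in A, the lowest of the list there, and 0.37 in B. Tcl1, which encodes a coactivator of AKT, had the highest median r to the rest of the list, 0.49, and Bcl6b the lowest, 0.28. Id4 covaried with Tcl1 at 0.55, but unevenly, with 0.22 in A and 0.65 in B. Dusp6, the gene of an ERK phosphatase that is itself induced by ERK signalling, is not in the list, and its r to the mean of the list was 0.68 (0.35 in A and 0.77 in B). Ccnd2 is in the differentiating list, yet its r to the stem cell mean was 0.57 (0.27 in A and 0.64 in B). The mean of the list itself ranged from 1.97 to 5.82 log2 in set A and from 0.53 to 5.74 in set B. Its r was 0.14 with the number of genes detected and 0.23 with log10 of total reads.

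Stra8, Kit and Crabp1 ran the other way. Id4 and Stra8 had r = -0.57, with -0.52 in set A and -0.58 in set B. Against Id4, Stra8 was the lowest of the measured genes with r of the same sign in both sets. Above 8 RPM, 3 cells held both genes, 15 held Id4 alone, 18 held Stra8 alone and 17 held neither. Stra8 was also negative to Tcl1 (-0.53, and -0.36 in A and -0.58 in B) and Ret (-0.51, with -0.49 and -0.52). Most cells with Stra8 still held Ret: above 8 RPM, 16 cells held both, 29 Ret alone, 5 Stra8 alone and 3 neither. For Tcl1 and Stra8, 8 cells held both, 26 Tcl1 alone, 13 Stra8 alone and 6 neither. Stra8 with Gfra1 had r of -0.04, with 0.30 in A and -0.12 in B. Ret and Gfra1 were set against Stra8 without a test of the difference. Crabp1, which encodes a retinoic acid-binding protein, had r of -0.63 with the stem cell mean (-0.64 in A and -0.63 in B). Dnmt3b, the gene of a de novo DNA methyltransferase, had -0.47 with Id4 (-0.48 in each set).

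Kit and Stra8 were positive to each other across cells, with r = 0.54 (0.29 in A and 0.58 in B). Above 8 RPM, 10 cells held both, 4 held Kit alone and 11 held Stra8 alone. Kit had r of -0.36 with Id4 (-0.30 in A and -0.37 in B). Above 8 RPM, 4 cells held both, 14 held Id4 alone, 10 held Kit alone and 25 held neither. Thus 4 of the 18 cells with Id4 held Kit, beside 14 of all 53 cells, so these counts show no clear exclusion. Gfra1 and Kit were both above 8 RPM in 9 cells, with 33 holding Gfra1 alone, 5 Kit alone and 6 neither. The lowest r for Kit, among genes with r of the same sign in both sets, was -0.67 with Sdc4. However, it was -0.71 in set B and -0.08 in set A, where 3 cells had any Kit above 1 RPM. Helz (-0.55, and -0.68 in A and -0.55 in B) and Brwd3 (-0.53, and -0.51 and -0.54) were low against Kit in both sets. Of other genes, Spag5, which encodes a spindle protein, was highest after Stra8 at 0.47.

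**Figure D3:**
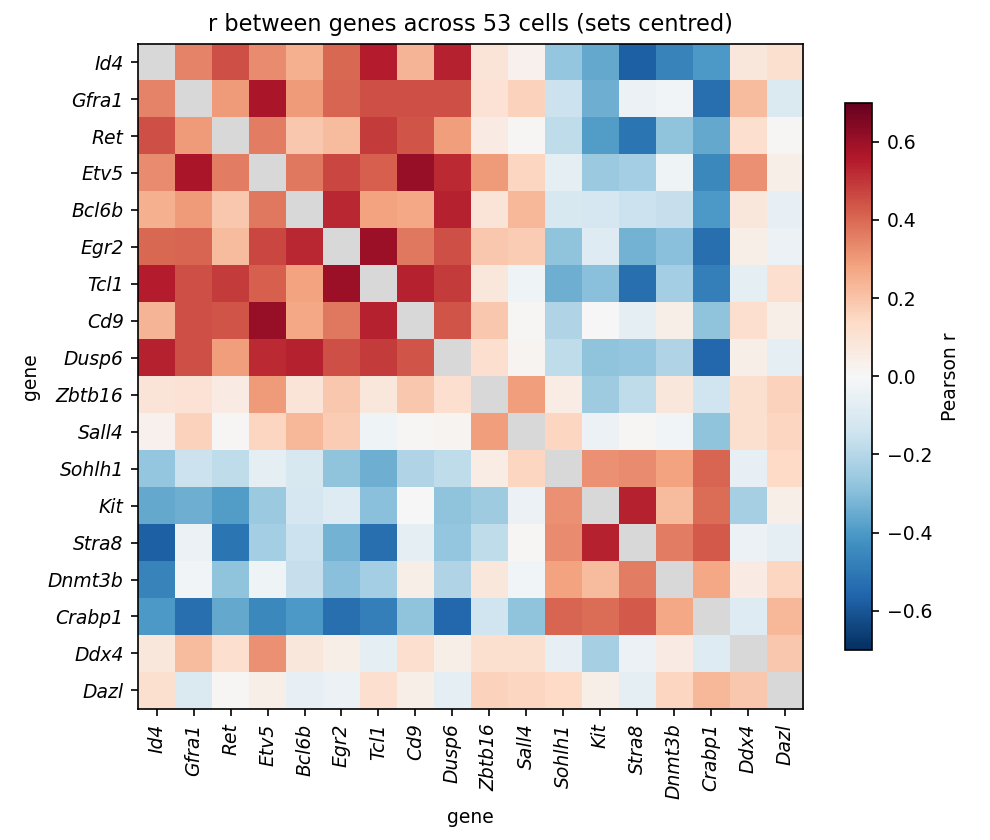
Pearson r between 18 genes across the 53 cells after set means were subtracted, from blue (negative) to red (positive), with the diagonal in grey. The block from Id4 to Dusp6 is positive throughout (lowest 0.19). Kit, Stra8, Dnmt3b and Crabp1 are mostly negative to it, with some values near 0, such as 0.00 for Kit with Cd9. They are positive to each other over the 53 cells. The lowest of these is 0.22 for Kit with Dnmt3b, which is -0.34 in set A and 0.31 in set B.

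The remaining markers had weaker or uneven partners, ranked among genes with r of the same sign in both sets. For Gfra1 the highest r were with Rasgrp2 (0.60), Etv5 and Cd164 (0.57 each), Amot (0.54) and Helz (0.53, but 0.14 in A and 0.66 in B), and the lowest were with Crabp1 (-0.53) and Uchl1 (-0.47). Id4 was highest with Cst3 (0.61, and 0.24 in A and 0.67 in B), Igf2bp1 (0.59, and 0.63 and 0.59) and Usp26 (0.55, and 0.57 and 0.55). The highest partners of Zbtb16 rested on set A, such as Pafah1b3 with 0.87 in A and 0.07 in B. Psmd4 was the exception, with 0.78 in A and 0.56 in B, and without the cell in which Zbtb16 was 0 it fell to 0.42 in A. Rhox10 reached 0.47 at most, with Pqlc1, and -0.46 at least, with the cell cycle phosphatase gene Cdc25a. Ddx4 reached 0.51 with Xlr3c, a member of a gene family with similar copies. Partners of Dazl other than Npm1 included Hsp90ab1 (0.59), Rps9 (0.58) and Rpl8 (0.57).

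Progenitor and differentiating genes did not vary as blocks. The median r was 0.01 for 9 progenitor genes and 0.05 for 10 differentiating genes, against 0.03 for all pairs. Kit fell short of the detection rule, so neither these 10 genes nor their mean includes it. In the differentiating list the sets differed, with 0.22 in A and 0.02 in B. The mean of the stem cell genes and the mean of the differentiating genes had r = -0.27 (-0.26 in A and -0.28 in B), but it was 0.04 when genes whose log2 mean lay below 4 were dropped. Id4, Bcl6b, Egr2, Tcl1, Stra8 and Dnmt3b are among the dropped genes. Sall4, a pluripotency-associated zinc finger gene, had r of 0.14 with the stem cell mean and Zbtb16 0.19.

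Cell cycle genes varied together within each list. For 43 genes of G2 and mitosis the median r was 0.21 (0.24 in A and 0.21 in B), led by the kinetochore gene Cenpf, the spindle gene Tpx2, Arl6ip1 and the cyclin gene Ccnb1. For 30 genes of S phase it was 0.24, with 0.41 in A and 0.13 in B, led by Rrm2 and Rrm1 of ribonucleotide reductase, Mcm3 and Tipin. The sets also differed in level. The mean of the G2 and mitosis genes was 2.70 log2 in A, with its lowest cell at 0.99, and 4.81 in B, from 3.60 to 6.30. The ranges overlapped at their ends. For S phase the means were 3.52 (1.56 to 5.33) and 4.63 (3.73 to 5.86).

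The relation between the phases had opposite signs in the sets. In set A the means of S phase and of G2 and mitosis had r = 0.73, as cells low in one were low in the other. In set B it was -0.47, as cells with more S phase RNA had less RNA of G2 and mitosis. The value over both sets, 0.16, describes neither. Set A has 12 cells, and what distinguishes the sets is not stated, so cell state and the source of the sets cannot be told apart.

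**Figure D4:**
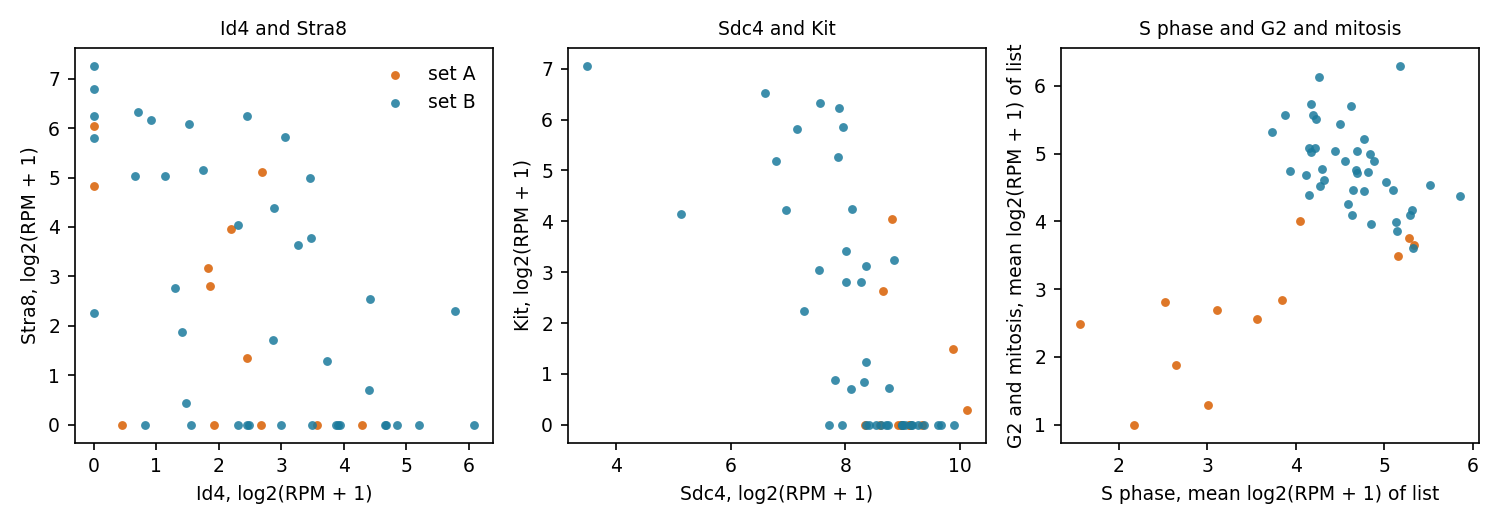
Each point is 1 of the 53 cells, with set A in orange and set B in blue, for Id4 and Stra8, for Sdc4 and Kit, and for the mean levels of the S phase and the G2 and mitosis lists, all on log2(RPM + 1) scales. High Id4 and high Stra8 rarely meet, Kit is high mainly in set B cells with less Sdc4, and in the panel of the lists set A slopes up while set B slopes down.

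Promoters of the cell cycle lists were searched for words known from such genes. Promoters are RefSeq stretches on GRCm38.p6, 250 bases before and 50 after each start site. They were searched on both strands. The CHR element, known from genes of G2 and mitosis, was searched as TTTGAA and in its variant form as TTCGAA. The CCAAT box was searched by those letters. E2F-like words were GCGCGAA as one form, with TTTGGCG as another, then TTTCGCG as the next and finally TTTCCCG, and their matches can overlap each other. In the G2 and mitosis list, 36 of 43 genes matched an entry, and 30 of their 38 promoters held a CHR word (78.9%), against 19.2% of all 32851 promoters. CCAAT was in 78.9% and 37.4%. In the S phase list, with 22 of 30 genes matched, an E2F-like word was in 13 of 25 promoters, against 6.69% of all, and a CHR word in 4 of 25. CCAAT was in 72.0% of them. The stem cell list matched 6 of 8 genes with 11 promoters, of which 0 held a CHR or an E2F-like word and 63.6% held CCAAT. These are matches of letters, not binding sites.

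The 150 bases before the start site follow for 4 members of the G2 and mitosis list, 2 members of the S phase list, and Stra8, the leading on/off gene. They run 5′ to 3′ on the strand of the gene, with the searched words in capitals.
Cenpf, chr1:189688087-189688236, minus strand: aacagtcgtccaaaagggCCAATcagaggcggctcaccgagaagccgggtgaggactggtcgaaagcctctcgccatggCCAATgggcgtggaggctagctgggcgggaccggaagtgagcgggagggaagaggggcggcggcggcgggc
Ccnb1, chr13:100786487-100786636, minus strand: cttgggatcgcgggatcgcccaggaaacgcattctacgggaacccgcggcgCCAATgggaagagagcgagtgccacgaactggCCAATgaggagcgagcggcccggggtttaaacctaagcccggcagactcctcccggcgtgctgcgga
Top2a, chr11:99024190-99024339, minus strand: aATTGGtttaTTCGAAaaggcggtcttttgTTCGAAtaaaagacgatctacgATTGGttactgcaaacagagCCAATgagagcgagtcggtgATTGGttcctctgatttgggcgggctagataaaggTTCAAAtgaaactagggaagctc
Cdk1, chr10:69352913-69353062, minus strand: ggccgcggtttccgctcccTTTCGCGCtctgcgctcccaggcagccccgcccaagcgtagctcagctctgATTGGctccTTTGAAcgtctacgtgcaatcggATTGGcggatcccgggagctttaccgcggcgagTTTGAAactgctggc
Mcm3, chr1:20820313-20820462, minus strand: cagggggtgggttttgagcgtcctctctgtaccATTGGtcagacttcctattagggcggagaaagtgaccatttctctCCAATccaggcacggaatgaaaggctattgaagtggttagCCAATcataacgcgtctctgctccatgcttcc
Mcm6, chr1:128359706-128359855, minus strand: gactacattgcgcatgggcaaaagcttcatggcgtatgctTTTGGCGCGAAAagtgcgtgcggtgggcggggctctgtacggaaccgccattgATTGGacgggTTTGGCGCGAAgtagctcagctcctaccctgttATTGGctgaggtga
Stra8, chr6:34920798-34920947, plus strand: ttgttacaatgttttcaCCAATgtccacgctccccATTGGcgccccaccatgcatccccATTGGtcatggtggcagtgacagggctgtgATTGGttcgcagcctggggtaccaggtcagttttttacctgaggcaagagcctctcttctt

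Top2a, the topoisomerase gene of mitotic chromosomes, held 3 CHR words and 4 CCAAT words in this stretch, and Cdk1, the mitotic kinase gene, held 2 of each. Mcm6, the partner of Mcm3 in the replicative helicase, held 5 overlapping E2F-like words. Cenpf and Ccnb1, 2 of the 4 members with the highest median r, held 2 CCAAT words each and no CHR word within these 150 bases, and Mcm3 held 3 CCAAT words. Stra8 held 4 CCAAT words. Among the 19 promoters of the 16 matched on/off genes of the first 20, 63.2% held CCAAT and 10.5% a CHR word.

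The 18 measured genes of cholesterol synthesis had a median r of 0.17 (0.23 in A and 0.17 in B), led by Fdft1 (squalene synthase), Lss, Nsdhl and Sc4mol, whereas the regulator gene Srebf2 had a median of -0.10 to the rest. Their mean had r of 0.42 with the stem cell mean (0.73 in A and 0.31 in B), close to the 0.43 of the chaperone mean (0.62 and 0.36). Glycolysis genes had 0.10, chaperones 0.08, and oxidative phosphorylation 0.07, the last over 38 genes. Immediate early genes had 0.13 over 5 genes, with -0.04 in A. Of 91 pairs of list means, 79 had r above 0, and most list means were weakly positive to the number of genes detected in a cell, such as 0.31 for cholesterol synthesis and 0.54 for p53 targets.

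The same medians at P3 are set beside those at P7 as a description of other cells. For the same 8 stem cell genes the median r was 0.15 in 71 wild-type P3 cells and 0.17 in the 65 with at least as many reads as the shallowest P7 cell. In the cells labelled knockout it was 0.19 in all 69 and 0.17 in 48 without their set A. Within single P3 sets it was 0.22 in A (16 cells) and 0.14 in B (55 cells) of the wild type, and 0.28, 0.33 and 0.14 in A, B and C (21, 12 and 36 cells) of the cells labelled knockout. The smaller P3 sets thus lay near or above the 0.27 of P7 set A. Id4 with Stra8 was -0.08 in both P3 groups, and Kit with Stra8 was 0.13 and 0.24. The lists of G2 and mitosis (0.19 in wild-type P3) and cholesterol synthesis (0.16) had values like those at P7. Oxidative phosphorylation had 0.34 in wild-type P3 cells and 0.07 at P7. In the cells labelled knockout it had 0.13 in all 69 and 0.09 without their set A. These 8 genes were chosen on P7 cells because they were well detected there, the groups are 1 sample each, and the difference between ages was not tested.

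**Figure D5:**
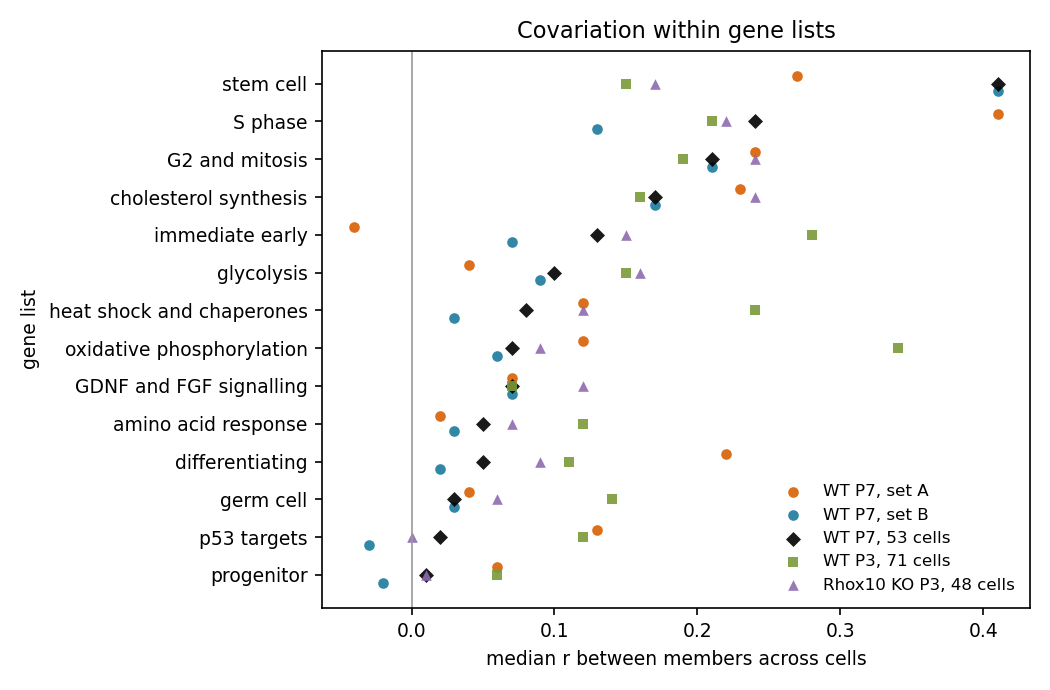
Median r between the members of each gene list across cells, for the 53 wild-type P7 cells (black diamonds), their sets A and B (orange and blue circles, drawn slightly above and below), wild-type P3 cells (green squares) and P3 cells labelled knockout without their set A (purple triangles). The stem cell list has the highest P7 value over the 53 cells, 0.41, with 0.27 in set A, and values of 0.15 and 0.17 in the P3 groups, whose single sets reach 0.33.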

How the data were processed

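Single cells were captured on a Fluidigm C1 chip after ERCC spike-ins were added to the lysis mix, and their cDNA was amplified with SMARTer chemistry, per the labels' protocols. STAR 2.3.0, HTSeq 0.6.1 and mm10 are named in the submitters' processing notes. For the annotation, the strand setting and reads with several alignments, the choice made is not given in the sources used here. Values deposited under the name TPM are in fact RPM: in each cell they are whole multiples of what 1 read is worth, the same for every gene, and 99.83% or more of the values in each of the 53 cells came out whole within 0.001 RPM. The table's 84 ERCC rows and Rn45s, the ribosomal RNA precursor, were left out. Doublets were not called.

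A pseudocount of 1 was used. Group levels are means of set means. Correlation used genes whose log2 mean reached 2 and that passed 1 RPM in at least 30% of the cells of each set. Kit and Rhox10, with log2 means of 1.4 and 1.52, fell short of this and were correlated only because they were named as markers. Lengths are union exons of GENCODE M21, with 17569 of 19557 symbols matched directly and 1652 through RefSeq synonyms. Cells of 1 sample are not replicates, so no test was run. A correlation across cells shares library depth and capture, and is a description. Named genes followed fixed ranks: the 15 highest levels, the 20 leading on/off genes, the 15 leading pairs, the 5 highest and lowest partners of each marker, and the leading members of 23 lists. The partners of a marker were ranked among genes with r of the same sign in both sets. A few genes that meet these ranks are not reported here. Stra8 as an anchor, and the comparison of spread with 200 genes of like level, were added after the data were seen. The members and lists were chosen with earlier results of these data known. Python 3.11.15 and numpy 2.4.6 were used, and the functions were tested on simulated data. Thinning drew 2397579 reads per cell from 48 cells.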

Additional observations from a re-analysis of the deposited data

How the results depend on the processing

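Over all results and alternatives, 4 values reversed, 42 moved by more than the spread between the sets (for counts, by over 1.5 times) and 99 did not. Where the sets differ widely, as for S phase, that spread is wide. The S phase median of 0.24 was 0.41 in set A alone, 0.13 in set B alone and 0.34 for genes whose mean reached 4, and the r of 0.16 between S phase and G2 and mitosis was 0.73 in set A alone, 0.52 without centring, 0.35 with a pseudocount of 0.1 and 0.08 given depth. The values that moved or reversed follow. The cause of each was not tested unless the setting itself gives it.

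The count of genes above 1 RPM in every cell was 555 with a floor of 4. Among the 15 highest levels per length, 7 were kept without division by length. The 4 on/off genes became 175 with on at 8, 0 with on at 32, 1 with off at 0 only, 0 with at most 10% between, 27 with at most 30%, 7 with criteria over the 53 cells only and 278 in set A alone. At 8 RPM the 175 became 17 with off at 0 only, 13 with at most 10% between, 662 with at most 30%, 321 over the 53 cells, 1372 in set A alone and 318 in set B alone, and thinned reads kept 135 of them. The 491 called pairs became 1538 with a pseudocount of 0.1, 293 with 10, 229 by Spearman, 1052 after scaling to reads on genes, 846 after thinning, 223 at a mean level of at least 4, 442738 in set A alone and 2046 in set B alone, so the count depended on these settings.

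The median r of G2 and mitosis was 0.40 without centring, 0.24 in set A alone and 0.24 at a mean level of at least 4. That of the stem cell list was 0.27 in set A alone and 0.30 at a mean level of at least 1, and that of cholesterol synthesis 0.23 in set A alone and 0.44 at a mean level of at least 4. Id4 with Kit was -0.30 without centring and in set A alone, and -0.27 by Spearman. Id4 with Stra8 was -0.52 with a pseudocount of 10 and in set A alone. Kit with Stra8 was 0.29 and Kit with Sdc4 -0.08 in set A alone. The means of S phase and of G2 and mitosis reversed to -0.02 with a pseudocount of 10, -0.47 in set B alone and -0.03 by Spearman. The stem cell and differentiating means gave -0.25 with a pseudocount of 0.1, -0.23 with 10, -0.32 by Spearman, -0.39 given depth, -0.25 at a mean level of at least 1, and reversed to 0.04 at a mean level of at least 4. At that level the single pairs with Id4, Kit or Stra8 gave no value. The on/off count at 8 RPM, the stem cell and cholesterol lists, and the pairs with Stra8 or Sdc4 were added after the data were seen. No paired analysis was possible because no comparison between groups was tested.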
